A study of Mus musculus with 36 samples.

Results

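The 2 FOXA1 variants R219S and FE255del were compared directly with each other in primary mouse prostate organoids, cultures grown from epithelial cells of the mouse prostate, 1 day into the assay. The comparison took the samples titled R219S at day 1 and FE255del at day 1, 3 libraries each, which is 6 of the 36 libraries in the series. Every culture of the series carried a doxycycline-inducible pCW construct, and the induced product is a fusion of FOXA1 to the red marker DsRED. DsRED-positive cells were sorted, seeded in triplicate for each construct and handled separately from then on, and doxycycline was used at 500 ng/mL, as the labels state. The remaining groups hold an empty construct (EV, "empty vehicle" in the labels) and wild-type FOXA1 (WT), and each construct was also sampled at days 0 and 11. The labels do not say what day 0 means, but the deposited data are named there as without doxycycline. The 3 replicates of a construct came from 1 sorted population, so p-values measure the spread between cultures seeded from it. How many mice the cells came from is not stated in the labels.

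FOXA1 is a forkhead transcription factor that binds DNA in closed chromatin and opens it for other factors, in prostate epithelium among other tissues. Both variants change the forkhead domain that contacts DNA: R219S names the replacement of an arginine by a serine, and FE255del the loss of a phenylalanine and a glutamate. Prostate epithelium has basal cells, marked by Krt5, Krt14 and Trp63, and luminal cells, marked by Krt8, Krt18 and Cd24a, which make the gland's secretions. In bulk RNA, fewer cells of a type and less RNA per cell cannot be told apart, and this holds for each level given here.

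The 6 libraries held 65802059 to 72680864 counts, 20454 to 20889 genes with a count and 2.71% to 3.26% of counts in mitochondrial genes. In all, 18176 genes were tested. On the first principal component, which held 86.5% of the variance of these libraries, the 3 R219S libraries lay on one side and the 3 FE255del libraries on the other. Levels are CPM, counts scaled to library size, fold changes are R219S over FE255del on the log2 scale ± SE, and a gene is called higher or lower in R219S where the adjusted p of edgeR's quasi-likelihood test (Benjamini-Hochberg over all tested genes) was under 0.05. The SE was computed from the fold change and its test and understates the error of genes near 0 in either variant.

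Foxa1 itself (chromosome 12, 57540628 to 57546916, minus strand, mm10) did not separate the variants. It stood at 312, 303 and 311 CPM in the 3 R219S libraries and at 326, 344 and 291 CPM in the 3 FE255del libraries. The groups overlapped, and the difference of -0.05 ± 0.06 did not pass the test (adjusted p = 0.49). EV stood at 227 ± 4.99 CPM (SD, n = 3, as for each mean below) and WT at 414 ± 4.69 CPM. Whether the inserted cDNA is mouse or human is not stated, so part of these counts may come from it, and they say nothing of the protein. Of the related genes, Foxa2 had 2 counts in all FE255del libraries together and a ratio of 23.5 (95% exact interval 6.17 to 200) in R219S, at 0.218 ± 0.0243 CPM, and Foxa3 was too low to be tested.

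The variants differed widely at day 1. Of the tested genes, 9537 passed (52.5%), 4867 higher in R219S (26.8%) and 4670 lower (25.7%). With at least 2-fold added, 1439 were higher (7.92%) and 1647 lower (9.06%). At least 4-fold were 701 higher and 922 lower. These counts of folds change to 690 and 900 when a group without counts is set to 3 counts over its 3 libraries. The 3 and 3 libraries did not overlap for 11481 genes (63.2%). Since so many genes passed, counts of list members are read below against these shares.

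**Figure D1:**
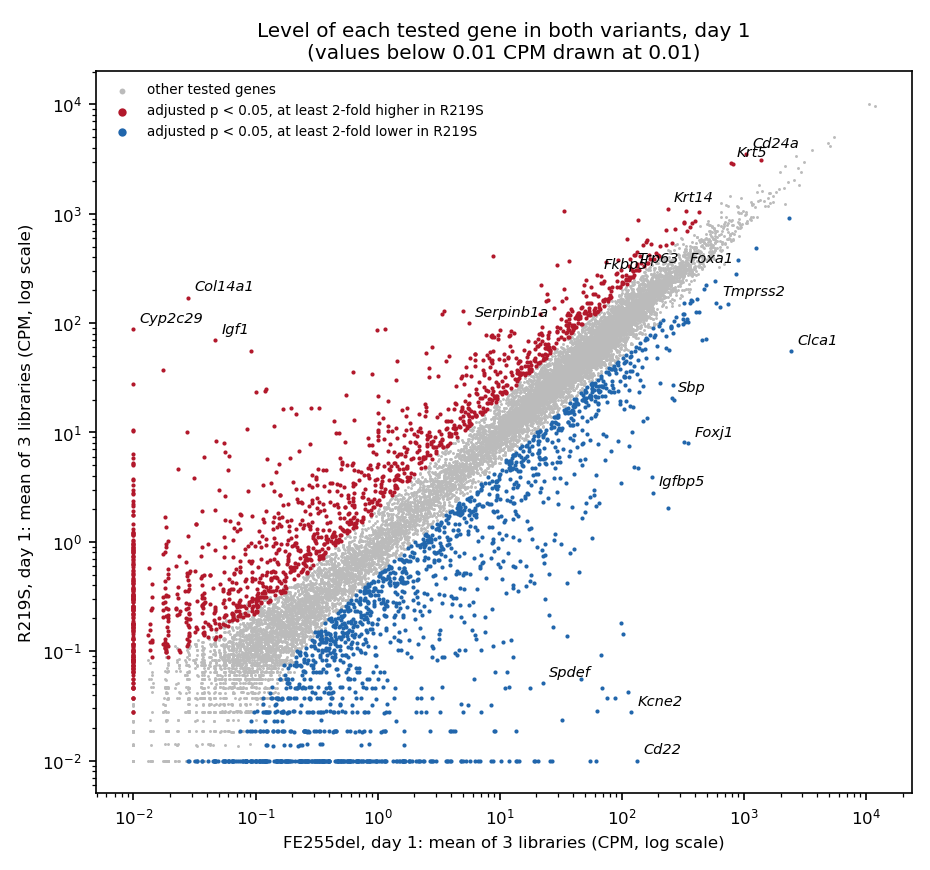
Mean level in FE255del (horizontal) and R219S (vertical) at day 1 for each tested gene, in CPM on log scales, with points coloured where the gene passed with at least 2-fold. Named genes off the diagonal include Clca1 at 2449 CPM in FE255del and 55.9 in R219S, and Col14a1 at 0.0279 and 171.

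Of 29 tested basal genes, 25 were higher in R219S, 2 lower and 2 did not pass, with a median log2 fold change of 0.97 beside 0.00 over all tested genes. Their summed level was 9233 to 9413 CPM in the R219S libraries and 3932 to 4159 CPM in the FE255del libraries. Krt5, the main keratin of basal cells (chromosome 15, 101707070 to 101712898, minus strand), stood at 2961, 2945 and 2852 CPM in the R219S libraries and at 750.3, 772 and 824 CPM in the FE255del libraries. Each R219S library was far above each FE255del library, a difference of 1.90 ± 0.06 (adjusted p = 9.6e-25). Its partner keratin Krt14 (chromosome 11, 100203162 to 100207548, minus strand) stood at 1108, 1105 and 1138 CPM against 224, 243 and 247 CPM, again without overlap (2.23 ± 0.07, adjusted p = 5.5e-24). Trp63, the transcription factor that maintains basal identity, stood at 304, 322 and 308 CPM in R219S and 111, 120.0 and 128 CPM in FE255del (1.38 ± 0.07, adjusted p = 1.6e-18). In EV, Krt5 stood at 4766 ± 227 CPM, Krt14 at 2232 ± 149.8 and Trp63 at 286 ± 7.35. In WT they stood at 2005 ± 62.6, 243 ± 12.4 and 143 ± 10.9 CPM. The R219S means of Krt5 and Krt14 lay below EV and above WT, and that of Trp63 above both.

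Further basal genes on the higher side were Snai2, a repressor expressed in basal cells, which differed by 1.92 ± 0.05, and Col17a1, the hemidesmosomal collagen, by 1.73 ± 0.08. The 2 lower ones were the nerve growth factor receptor Ngfr (-2.06 ± 0.10) and the basal keratin Krt15 (-0.47 ± 0.08).

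All 9 tested genes of hemidesmosomes and laminin-332, which fix basal cells to the basement membrane, were higher in R219S (median 0.86). They ran from Lamb3, a laminin chain, at 0.18 ± 0.06 to Dst, which links hemidesmosomes to keratin, at 1.78 ± 0.06. Of 15 desmosome genes, 11 were higher and 3 lower (median 1.39). Perp stood at 421 ± 5.85 CPM in R219S and 129 ± 2.45 CPM in FE255del (1.70 ± 0.07), and the basal cadherin Dsc3 at 503 ± 42.8 and 205 ± 4.18 CPM (1.30 ± 0.07). The members lower in R219S were Dsg1c (-1.38 ± 0.11), Pkp2 (-0.38 ± 0.07) and Dsg2, the cadherin of simple epithelia (-0.18 ± 0.06).

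Squamous genes build stratified and cornified epithelium. Of 37 tested, 21 were higher in R219S and 8 lower. The median was 1.29. It was 0.96 without a filter on low counts and 1.96 when only the 6 compared libraries were fitted. Krt6a, a keratin of activated keratinocytes, was the most abundant of those named, with 588, 591 and 596 CPM in R219S and 105, 109 and 117 CPM in FE255del (2.42 ± 0.08, adjusted p = 4.1e-22). The groups did not overlap, but Krt6a has the near-identical copy Krt6b, so its reads may be split. Loricrin, Lor, stood at 3.54 ± 0.0765 CPM against 0.203 ± 0.0339 CPM (4.11 ± 0.29), and transglutaminase Tgm1 at 10.8 ± 1.33 against 3.62 ± 0.443 CPM (1.57 ± 0.12). Lower in R219S were Evpl, envoplakin (-0.88 ± 0.0478), Lypd3 (-1.46 ± 0.12) and Grhl3, a factor of barrier formation (-0.87 ± 0.07).

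The luminal list had no common direction. Of 23 tested genes, 8 were higher in R219S and 11 lower, with a median of -0.05 that ran from -0.34 to 0.00 over the alternatives to the fit. The marker keratins Krt8 and Krt18 moved little and apart, by 0.38 ± 0.07 and -0.33 ± 0.042. Of 6 tested keratins of simple epithelia, 2 were higher in R219S and 3 lower. The summed level of the 6 was 2327 to 2362 CPM in the R219S libraries and 3943 to 4202 CPM in the FE255del libraries. It was 4521 to 4863 CPM in EV and 3077 to 3173 CPM in WT. Cd24a, the surface marker of luminal cells, was among the most abundant genes higher in R219S, at 3575, 3468 and 3460.4 CPM against 1081, 1035 and 1028 CPM. The difference was 1.74 ± 0.0484 (adjusted p = 1.7e-25), and both WT (1117 ± 60.4 CPM) and EV (676 ± 21.4 CPM) lay near or below FE255del.

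Other luminal genes were lower in R219S. Krt7, a keratin of ducts and of progenitors, stood at 496, 479 and 478 CPM in R219S and 1259, 1285 and 1233 CPM in FE255del (-1.38 ± 0.0457, adjusted p = 2.0e-23). No library of one variant reached those of the other, and EV (1615 ± 74.6 CPM) and WT (752 ± 20.3 CPM) were both above R219S. Prom1, a surface marker of progenitor cells, stood at 12.8 ± 0.479 against 148 ± 8.85 CPM (-3.53 ± 0.13), and Elf3, an epithelial ETS factor, at 121 ± 5.04 against 319 ± 19.9 CPM (-1.39 ± 0.06). Spdef, an ETS factor of prostate and secretory epithelium, was nearly absent from R219S at 0.0514 ± 0.0221 CPM and stood at 22.5 ± 1.24 CPM in FE255del (-8.74 ± 0.28). Of 23 luminal progenitor genes, 7 were higher and 10 lower (median -0.03, and -0.10 with a stricter filter on low counts). The retinal dehydrogenase Aldh1a1 was among the lower ones, at 19.8 ± 0.573 against 269.9 ± 8.19 CPM (-3.77 ± 0.09).

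Androgen-responsive genes went in both directions. Fkbp5, a chaperone partner of steroid receptors and a widely used androgen target (chromosome 17, 28399094 to 28517527, minus strand), stood at 274, 279.8 and 269 CPM in R219S and 64.5, 59.4 and 63.8 CPM in FE255del (2.13 ± 0.06, adjusted p = 4.6e-26). Tmprss2, an androgen-regulated serine protease (chromosome 16, 97564682 to 97611195, minus strand), was the reverse, at 159, 147 and 156 CPM in R219S and 587, 589 and 592 CPM in FE255del (-1.93 ± 0.05, adjusted p = 5.8e-26). Neither gene had overlapping libraries. WT was close to FE255del for both, with 62.3 ± 0.947 CPM of Fkbp5 and 514 ± 15.2 CPM of Tmprss2, while EV had 159.8 ± 3.36 and 301 ± 2.5 CPM. Over the 22 tested genes of the list, 8 were higher and 9 lower, with a median of -0.05 (0.01 with a stricter filter on low counts).

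**Figure D2:**
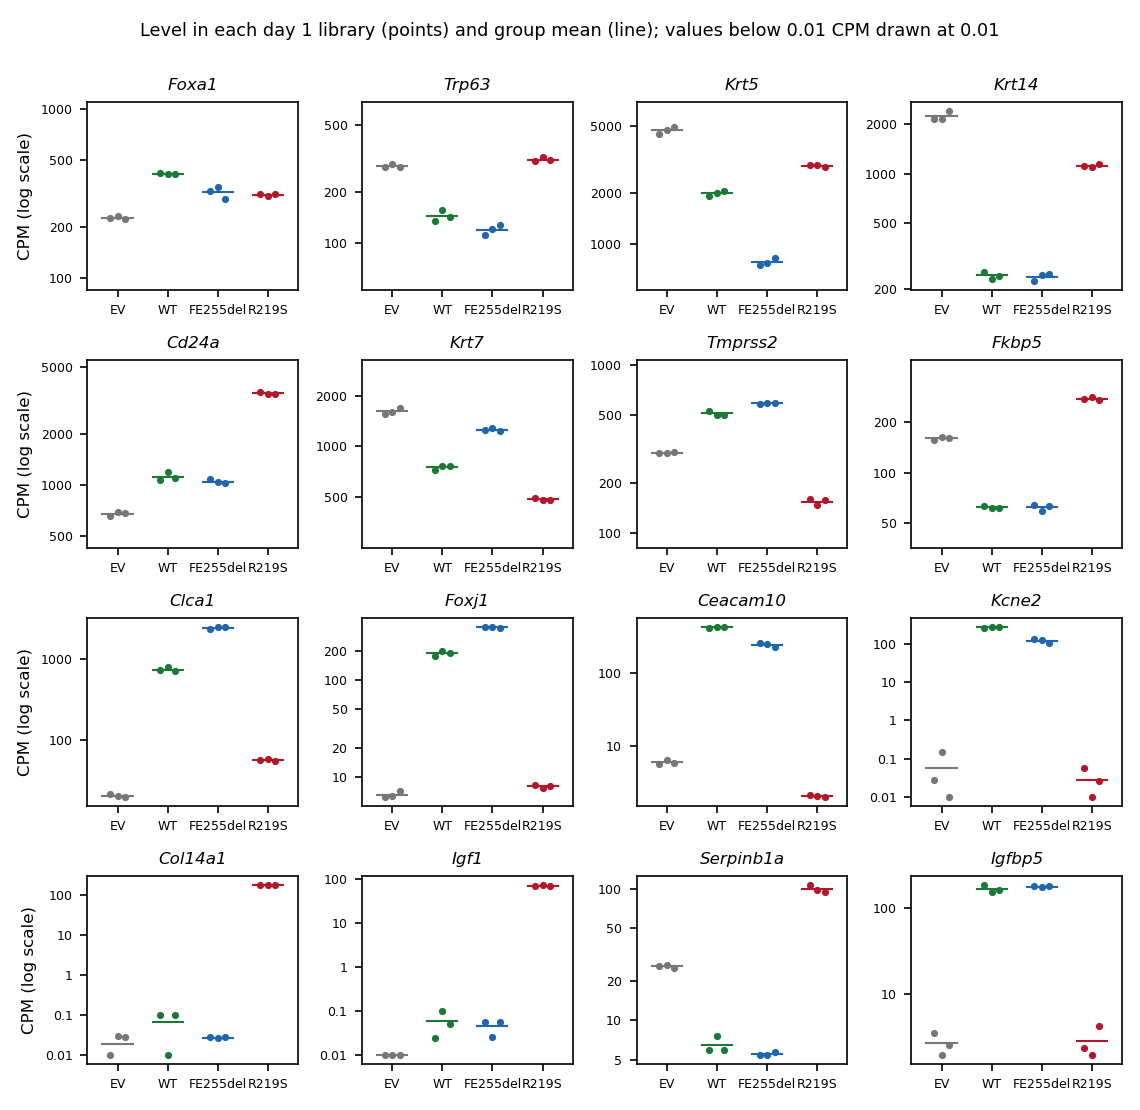
Level of 16 genes in each day 1 library of EV, WT, FE255del and R219S, in CPM on log scales, with a line at each group mean and values under 0.01 CPM drawn at 0.01. Krt14, Fkbp5 and Tmprss2 place FE255del beside WT and R219S away from both, and Clca1, Kcne2 and Igfbp5 are high in WT and FE255del and low in EV and R219S.

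Several of the widest differences at high level were in secretory and transport genes. Clca1, a secreted regulator of chloride channels made by goblet cells (chromosome 3, 145003817 to 145032776, minus strand), stood at 55.9, 57.9 and 53.8 CPM in R219S and at 2379, 2494 and 2475 CPM in FE255del (-5.45 ± 0.09, adjusted p = 2.5e-29). FE255del was also above WT (739 ± 41.8 CPM) and R219S closer to EV (20.2 ± 0.992 CPM). Of 29 ion and water transport genes, 9 were higher and 18 lower (median -1.31). Kcne2, a potassium channel subunit, stood at 0.0564, 0 and 0.0272 CPM in R219S and 128, 125 and 106 CPM in FE255del (-11.98 ± 0.27, adjusted p = 4.7e-22). It was near zero in EV (0.0592 ± 0.0787 CPM) and highest in WT (263 CPM). The calcium-activated chloride channel Ano1 stood at 71.2 ± 3.08 against 487 ± 15.1 CPM (-2.78 ± 0.06), the sodium channel subunit Scnn1g at 0.863 ± 0.0919 against 40.6 ± 1.36 CPM (-5.55 ± 0.12), and the sodium pump subunit Atp1b1 at 70.7 ± 6.12 against 454 ± 9.63 CPM (-2.68 ± 0.05). Among the members higher in R219S were the solute carriers Slc5a8 (2.33 ± 0.09) and Slc5a1 (2.98 ± 0.13).

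Of 10 tested prostate secretory genes, 6 were lower in R219S and 1 was higher, with a median of -2.86 that became -1.93 with groups without counts set at 3 counts. Ceacam10, a secreted adhesion-family protein, stood at 2.12, 2.07 and 1.96 CPM in R219S and 253, 243 and 226 CPM in FE255del (-6.88 ± 0.12). Sbp, the spermine-binding protein of mouse prostate, stood at 20.5 ± 0.519 against 257 ± 5.05 CPM (-3.65 ± 0.14). The groups did not overlap for either gene, and EV was lower than R219S for Sbp at 0.0198 CPM. Sbp has the close copy Sbpl and Ceacam10 belongs to a multigene family, so both are uncertain where reads could be split. Mmp7, a matrix protease secreted by glandular epithelium, stood at 97.4 ± 12.3 against 319.7 ± 18.8 CPM (-1.72 ± 0.10).

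Genes typical of other epithelia were counted too. Of 9 urothelial genes, 6 were lower in R219S and none of those tested was higher (median -0.80). Upk3a, a uroplakin of the urothelial surface, went from 62.9 ± 4.89 CPM in FE255del to 0.0282 ± 0.0282 CPM in R219S (-11.05 ± 0.36). Of 19 goblet cell genes, 3 were higher and 10 lower, with a median of -0.57 (-0.99 without R219S replicate 1 and -0.48 without FE255del replicate 2). Trefoil factor 2, Tff2, a peptide of mucus, had no count in R219S and 17, 22.1 and 19.6 CPM in the FE255del libraries, at least 1410-fold lower. Tff1 went the other way, at 4.79 ± 0.947 CPM in R219S against 0.987 ± 0.286 CPM (2.27 ± 0.27). Of 11 airway genes, 3 were higher and 5 lower, with a median of -1.32 (-0.77 without R219S replicate 2). Foxj1, the forkhead factor of ciliated cells, stood at 8.21, 7.58 and 8.06 CPM in R219S and 354, 351 and 346 CPM in FE255del (-5.46 ± 0.13, adjusted p = 9.2e-24), without overlap. The carbonyl reductase Cbr2, among the most abundant genes lower in R219S, stood at 908 ± 39.4 against 2363 ± 156 CPM (-1.38 ± 0.05), while lactoferrin, Ltf, was higher at 376 ± 14 against 92.5 ± 7.01 CPM (2.02 ± 0.09).

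Of 18 tested genes of foregut, liver and intestine, 6 were higher in R219S and 9 lower (median -0.97, and -0.42 without a filter on low counts). Cdx2, the homeobox factor of intestine, stood at 2.09, 1.49 and 1.78 CPM in R219S and 12.5, 14 and 14.3 CPM in FE255del (-2.93 ± 0.13, adjusted p = 2.9e-20), without overlap. The hepatocyte factor Hnf4a stood at 0.0181 ± 0.0314 against 1.06 ± 0.145 CPM (-5.72 ± 0.57). Of 13 brush border genes, 4 were higher and 7 lower (median -0.53, and 0.00 without a filter on low counts). The peptidase Dpp4 was higher, at 1.53 ± 0.146 against 0.139 ± 0.0068 CPM (3.44 ± 0.30). The brush border cadherin Cdhr2 was lower, at 0.107 ± 0.0671 against 2.82 ± 0.484 CPM (-4.70 ± 0.46).

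Cytochromes P450, which oxidise lipids and foreign compounds, went both ways, 11 of 30 higher and 12 lower (median -0.21, and 0.02 with a stricter filter). Cyp2f2, known from airway secretory cells, stood at 2.65, 1.24 and 1.67 CPM in R219S and 48.3, 52.8 and 50.3 CPM in FE255del (-4.77 ± 0.20), and Cyp2s1 at 32.7 ± 4.25 against 104 ± 8.84 CPM (-1.67 ± 0.12). Each R219S library was below each FE255del library for both. Cyp2j6, an arachidonic acid epoxygenase, was higher at 93.1 ± 5.6 against 22.3 ± 1.28 CPM (2.06 ± 0.08), above EV (23.4 ± 1.03 CPM) and WT (25.1 ± 1.4 CPM). These belong to multigene families and are uncertain where reads could be split.

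Several receptors better known from immune cells or gut were present in FE255del and close to absent in R219S. Cd22, the sialic acid lectin of B cells (chromosome 7, 30865402 to 30880342, minus strand), had no count in R219S and 123, 144 and 133 CPM in the FE255del libraries, at least 9600-fold lower. WT had 87.6 ± 19.9 CPM and EV none. The secretin receptor Sctr was at least 1480-fold lower, from 20.6 ± 1.61 CPM, and the macrophage lectin Siglec1 at least 1870-fold, from 26 ± 2.72 CPM. Csf1r, the receptor for macrophage colony-stimulating factor, stood at 0.0554 ± 0.048 CPM in R219S and 46.1 ± 3.92 CPM in FE255del (-9.65 ± 0.31). WT had 63.6 ± 7.98 CPM of it. Il1rl1, the interleukin-33 receptor, was different in that WT was near zero too (0.0593 ± 0.0298 CPM), with 0.167 ± 0.128 CPM in R219S and 27.4 ± 0.775 CPM in FE255del (-7.34 ± 0.39). Of 18 such receptors tested, 2 were higher in R219S and 11 lower. The median was -0.59, and ran from -1.20 with a stricter filter on low counts to -0.41 over the alternatives to the fit. The higher ones were Adgrg7 (5.34 ± 0.59) and Il2rg (4.0 ± 0.67). This list was chosen with earlier results of these data known, so its counts are not independent support.

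Another set of genes was on in R219S and nearly silent in the other day 1 groups. Col14a1, a collagen that binds fibrils (chromosome 15, 55307750 to 55520803, plus strand), stood at 170.4, 170.1 and 174 CPM in R219S and 0.0282, 0.0263 and 0.029 CPM in FE255del (12.50 ± 0.25, adjusted p = 1.2e-26). EV (0.0196 CPM) and WT (0.0667 CPM) were near zero too. Igf1, insulin-like growth factor 1 (chromosome 10, 87858265 to 87937042, plus strand), stood at 68.8, 73.7 and 68.9 CPM against 0.0565, 0.0263 and 0.058 CPM (10.52 ± 0.33, adjusted p = 1.5e-14), with no count in EV and 0.0595 CPM in WT. Slc13a1, a sulfate transporter of kidney and gut, stood at 50.3, 58.1 and 58.6 CPM against 0.0847, 0.105 and 0.087 CPM (9.20 ± 0.23). These 3 genes were high in each R219S library, and no mean in FE255del, EV or WT was above the 0.406 CPM of Slc13a1 in EV. Cps1, the first enzyme of the urea cycle, had a ratio of 1130 (95% exact interval 313 to 9340), and Igfn1, a gene of skeletal muscle, of 3020 (95% exact interval 836 to 25000). Cyp2c29, a liver cytochrome P450, stood at 80.1, 94.5 and 90.2 CPM in R219S and had no count in FE255del, EV or WT at day 1, at least 6350-fold higher. DESeq2 did not call it (adjusted p = 0.065), and as a member of a multigene family that shares its annotated span with the pseudogene Cyp2c53-ps it is uncertain.

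Matrix and growth factor genes beside these were mixed. Of 33 tested collagens, 12 were higher in R219S and 9 lower (median 0.64, and 0.33 without a filter on low counts). Col28a1 (21.9 ± 1.43 against 0.552 ± 0.134 CPM, 5.30 ± 0.24) and the basement membrane collagen Col4a5 (109 ± 0.879 against 37 ± 2.04 CPM, 1.55 ± 0.08) were higher, and Col8a1 (8.08 ± 0.889 against 48.3 ± 0.764 CPM, -2.58 ± 0.13) and Col6a3 (0.0094 ± 0.0163 against 1.43 ± 0.182 CPM) were lower. Of 11 genes of the insulin-like growth factor axis, 4 were higher and 5 lower (median -0.15, and -0.00 without that filter). Igfbp5, a secreted binding protein of the factor, was lower at 2.34, 1.92 and 4.19 CPM in R219S against 180.5, 175 and 181 CPM in FE255del (-5.98 ± 0.32, adjusted p = 9.2e-15). The adaptor Irs1 (-1.55 ± 0.08) and the insulin receptor Insr (-0.84 ± 0.07) were lower too, and Igf1r was higher (0.51 ± 0.15).

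Serpins, a family of protease inhibitors, were higher as a group. Of 22 tested, 17 were higher in R219S and 1 was lower, with a median of 2.10. Serpinb9, an inhibitor of granzyme B, stood at 233, 217 and 222 CPM in R219S and 23.2, 21.2 and 21.5 CPM in FE255del (3.35 ± 0.07). Serpinb1a, an inhibitor of neutrophil proteases, stood at 107, 97.2 and 94.5 CPM against 5.43, 5.52 and 5.75 CPM (4.16 ± 0.11), and its neighbour in the family Serpinb1b at 16.7 ± 1.12 against 0.284 ± 0.0576 CPM (5.87 ± 0.19). No library overlapped between the variants for these genes, and EV (25.8 ± 0.76 CPM of Serpinb1a) lay between them. Members with near-identical copies, such as the Serpinb1, Serpinb6 and Serpina3 groups, are uncertain where reads could be split. The member lower in R219S was Serpind1, at 0.0094 against 0.231 CPM, which DESeq2 did not call (adjusted p = 0.18).

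The largest differences at a mean of at least 2 CPM without overlap also named, on the side higher in R219S, the liver glucuronosyltransferase Ugt2b34 (7.68 ± 0.24), the retinol dehydrogenase Rdh12 (7.82 ± 0.31), the adaptor Sash3 (7.61 ± 0.24) and the ion pump Atp13a5 (8.41 ± 0.34). Otol1, an inner ear matrix gene, was at least 461-fold higher and the neuronal gene Astn1 at least 738-fold. Reg3b, an antimicrobial lectin, had a ratio of 627 (95% exact interval 173 to 5190). On the side lower in R219S were Krt77 (-11.32 ± 0.25), the synaptic glycoprotein Olfm1 (-11.15 ± 0.41) and the cadherin of hair cells Cdh23 (-10.92 ± 0.38). Without counts in R219S were Mpped1 (at least 3940-fold lower), Umodl1 (at least 1950-fold), the neuropeptide receptor Adcyap1r1 (at least 1370-fold), Lactbl1 (at least 615-fold), Actl6b (at least 493-fold) and the digestive tract protease Capn9 (at least 381-fold). These bounds set the empty group at 3 counts over its 3 libraries. Like the intervals of the ratios, they hold for counting error alone and are too narrow if both reads of a pair were counted, and 69.7% to 70.5% of low counts in these libraries were even.

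Among genes of high level, those at least 2-fold higher in R219S included Anxa2 and Anxa1, membrane-binding annexins (1.82 ± 0.06 and 1.15 ± 0.0454), S100a14 (1.66 ± 0.06) and the small GTPase Rab15 (1.10 ± 0.0474). Anxa2 alone stood at 2837, 2993 and 2782 CPM in R219S against 808, 812 and 819.6 CPM in FE255del, without overlap. On the lower side were the tetraspanin Tspan1 (-2.31 ± 0.05), the receptor tyrosine kinase Axl (-2.18 ± 0.08), the peroxiredoxin Prdx6 (-1.62 ± 0.0476), the mucosal keratin Krt4 (-1.26 ± 0.08) and Mfge8, a bridge for the uptake of dying cells (-1.23 ± 0.06). Axl stood at 146, 137 and 136 CPM in R219S and 651, 633 and 625 CPM in FE255del, with WT at 634 ± 29.1 CPM beside FE255del and EV at 202 ± 6.91 CPM nearer to R219S.

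Promoter sequences were searched because FOXA1 binds DNA through a known forkhead core. The letters GTAAACA, the canonical core, and GTAAAGA were searched on both strands of the 300 bases from 250 before to 50 after each annotated start, taken from RefSeq on GRCm38. The 2 words differ in 1 letter and cannot match at the same place on the same strand, and a match describes letters only, not a bound site. Of 15156 promoters of tested genes, 2.89% held GTAAACA, 2.57% GTAAAGA and 5.37% either. For genes at least 4-fold higher in R219S (462 of 701 genes had an entry, 589 promoters) the shares were 6.96%, 3.74% and 10.5%. For genes at least 4-fold lower (637 of 922 genes, 797 promoters) they were 4.39%, 3.26% and 7.28%. Of the 46 genes named for the size or the abundance of their difference, 32 had an entry and 2 held a match, Igfn1, higher in R219S, and Axl, lower. Their 250 bases upstream of the start (chr1:136006343-136006592 and chr7:25788734-25788983, both on the minus strand) are shown 5′ to 3′ so that the matches can be placed, with the match in capitals. The capitals read as GTAAACA on the opposite strand and lie 239 to 233 bases before the start of Igfn1 and 229 to 223 before that of Axl.
Igfn1: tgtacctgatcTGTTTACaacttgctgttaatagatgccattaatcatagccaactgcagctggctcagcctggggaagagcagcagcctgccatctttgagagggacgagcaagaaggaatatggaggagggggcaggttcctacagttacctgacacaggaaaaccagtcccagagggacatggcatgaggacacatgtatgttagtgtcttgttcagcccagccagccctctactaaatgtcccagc
Axl: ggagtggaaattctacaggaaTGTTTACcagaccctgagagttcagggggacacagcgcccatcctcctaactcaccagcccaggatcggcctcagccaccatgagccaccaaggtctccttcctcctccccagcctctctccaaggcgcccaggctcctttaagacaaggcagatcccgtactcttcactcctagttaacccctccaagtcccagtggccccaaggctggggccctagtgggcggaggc

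Transcription factors other than Foxa1 differed as well. Of 25 forkhead genes tested, 5 were higher and 10 lower in R219S (median -0.06, and -0.12 without FE255del replicate 3). Beside Foxj1, Foxp4 (-1.01 ± 0.0489) and Foxq1 (-0.74 ± 0.06) were lower, and Foxc1 (0.74 ± 0.06) and the cell cycle factor Foxm1 (0.55 ± 0.07) were higher. Sox2, a stem cell factor, stood at 15 ± 0.443 against 34.2 ± 1.05 CPM (-1.19 ± 0.07), and Sox4 at 462 ± 10.3 against 240.1 ± 6.51 CPM (0.94 ± 0.06). Among 18 ETS genes, 9 were higher and 5 lower (median 0.19, and 0.08 without a filter on low counts), with Etv5 (1.37 ± 0.0488) and Etv4 (1.24 ± 0.05), which respond to growth factor signalling, on the higher side and Ets2 (-1.14 ± 0.0365) on the lower.

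Signalling genes were divided. Of 41 Wnt pathway genes, 18 were higher in R219S and 13 lower (median 0.21). Of the ligands, Wnt5a was lower, at 0.226, 0.367 and 0.544 CPM against 12.5, 13.7 and 12.3 CPM (-5.07 ± 0.21). Of the secreted inhibitors, Sfrp1 was higher at 77.1, 74 and 71.5 CPM against 8.55, 9.0 and 9.62 CPM (3.03 ± 0.08), and Wif1 lower at 27.3 ± 1.95 against 262 ± 21.5 CPM (-3.26 ± 0.16). The libraries of the variants did not overlap for these genes, and EV and WT had 12 ± 0.598 and 12 ± 1.92 CPM of Sfrp1. In the Notch list, of 19 genes, 6 were higher and 7 lower (median -0.07, and -0.12 without R219S replicate 1 or FE255del replicate 3), with the ligand Jag1 (1.09 ± 0.08) and the target Hes1 (0.79 ± 0.0411) higher and the ligand Dll4 (-5.22 ± 0.30) lower. In the EGF family, of 15 genes, 6 were higher and 4 lower (median 0.11, and 0.01 without R219S replicate 2). The receptor Egfr (1.17 ± 0.08) and the ligands Tgfa (0.95 ± 0.05) and Nrg1 (1.94 ± 0.13) were higher, and the receptor Erbb2 (-0.74 ± 0.0356) and the feedback inhibitor Errfi1 (-0.79 ± 0.0452) lower. Dusp6, a phosphatase induced by and acting on the ERK kinases that lie downstream of these receptors, stood at 315, 312 and 299.9 CPM in R219S and 98.5, 98.1 and 101 CPM in FE255del (1.64 ± 0.06, adjusted p = 5.9e-23). Of 33 BMP and TGF-beta genes, 16 were higher and 12 lower. The median was 0.21, with 0.35 under a stricter filter and 0.14 without R219S replicate 2. The receptor Tgfbr1 (1.17 ± 0.05) and the activin antagonist Fst (2.67 ± 0.12) were on the higher side. The ligand Bmp4 was lower, at 0.519 ± 0.117 against 4.62 ± 0.12 CPM (-3.15 ± 0.27), and Tgfb3 was higher, at 2.33 ± 0.237 against 0.411 ± 0.147 CPM (2.50 ± 0.19).

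Immediate early genes, the first to respond to stimulation, were evenly divided, 9 of 26 higher and 9 lower (median -0.01, and from -0.10 to 0.01 over the alternatives). Fosl2, an AP-1 subunit, stood at 262 ± 4.97 against 119 ± 9.55 CPM (1.13 ± 0.05), while the subunits Jun (-0.46 ± 0.0486) and Fos (-0.51 ± 0.08) were lower. Of 25 targets of YAP and TEAD, 10 were higher and 7 lower (median 0.17), with Amotl1 higher (0.69 ± 0.07) and the matricellular gene Ccn1 lower (-0.75 ± 0.09), beside Axl. Of 11 hyaluronan genes, 6 were higher and 2 lower (median 0.31). The synthase Has3 stood at 33.6, 31.5 and 34 CPM in R219S and 3.32, 3.02 and 2.96 CPM in FE255del (3.41 ± 0.13), above EV (1.81 ± 0.30 CPM) and WT (1.1 ± 0.0825 CPM), and the receptor Cd44 at 618 ± 15.3 against 415 ± 16.9 CPM (0.57 ± 0.0499). The synthase Has1 and the hyaluronan-degrading Cemip were the lower ones (-5.18 ± 0.48 and -2.37 ± 0.15).

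Of 25 genes of epithelial and mesenchymal transition, 11 were higher and 8 lower (median 0.06, and from -0.00 to 0.23 over the alternatives to the fit). Zeb2, a repressor of epithelial genes, rose from 0.142 ± 0.048 CPM in FE255del to 1.7 ± 0.166 CPM in R219S (3.55 ± 0.41), and fibronectin, Fn1, was lower (-1.05 ± 0.23). The epithelial factor Grhl2 was lower by a small amount (-0.36 ± 0.0365). Of 10 tested claudins, proteins of tight junctions, 3 were higher in R219S and 4 lower, with 1 in each direction by at least 2-fold. Their summed level was 571 to 586 CPM in R219S and 655 to 665 CPM in FE255del. Claudin 1, Cldn1, was higher at 48.7, 52.5 and 47.4 CPM in R219S and 3.95, 3.61 and 4.07 CPM in FE255del (3.68 ± 0.12), with EV at 23.2 ± 1.69 and WT at 2.36 ± 0.00784 CPM.

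Genes of the translation and respiration machinery were lower in R219S by small and even amounts. Of 75 cytosolic ribosomal protein genes, 72 were lower and none of those tested was higher, with a median of -0.33. Rps12 stood at 629, 640.2 and 627 CPM in R219S and 900.0, 908 and 931 CPM in FE255del (-0.53 ± 0.05), and Rpl8 at 946, 939 and 923 against 1272, 1275 and 1303 CPM (-0.46 ± 0.05). The libraries did not overlap for either gene. Of 74 nuclear genes of the respiratory chain, 67 were lower and none of those tested was higher, with a median of -0.37. Uqcrb, a complex III subunit, stood at 93.5 ± 0.71 against 161 ± 6.35 CPM (-0.78 ± 0.06), Uqcr10 of the same complex at 83.3 ± 2.4 against 140.4 ± 2.85 CPM (-0.75 ± 0.07) and Cyc1 at 160.2 ± 7.58 against 248 ± 8.7 CPM (-0.63 ± 0.05). At day 0 no member of either list passed in either direction, with medians of 0.03 and 0.02. Ribosomal protein genes have many near-identical pseudogenes, so single members are uncertain where reads could be split.

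Of 37 genes of cholesterol and fatty acid synthesis, 27 were higher in R219S and 5 lower (median 0.36). Examples are Cyp51 of sterol synthesis (0.63 ± 0.05), the fatty acid desaturase Fads1 (0.67 ± 0.0377) and the malic enzyme Me1 (1.10 ± 0.06), with mevalonate kinase, Mvk, lower (-0.98 ± 0.07). Of 67 genes of G2 and mitosis, 43 were higher and 2 lower (median 0.22), none by 2-fold. Kif23, a kinesin of cytokinesis, led them at 223 ± 6.36 against 121 ± 3.82 CPM (0.89 ± 0.07), while Mki67 did not pass (0.13 ± 0.08, adjusted p = 0.21). Of 55 replication genes, 30 were higher and 2 lower (median 0.18). The lower count was 1 without FE255del replicate 3 and without R219S replicate 2 or 3. Of 18 tested regulators of G1, 11 were higher and 2 lower (median 0.19), none by 2-fold. The inhibitor Cdkn1a was lower at 147 ± 4.3 against 293 ± 10.8 CPM (-0.99 ± 0.05) and Rb1 was higher (0.99 ± 0.0465). Of the cyclin genes, Ccnd1 was higher (0.60 ± 0.0479) and Ccnd2 lower (-0.73 ± 0.05). Of 37 p53 targets, 14 were higher and 16 lower (median -0.05, and from -0.10 to -0.02 over the alternatives), with the death receptor Fas (1.64 ± 0.08) and Trp53inp1 (1.39 ± 0.06) higher and Pmaip1, a death-promoting member of the BCL2 family, lower (-1.12 ± 0.11). Of 39 genes of glycolysis and the response to low oxygen, 14 were higher and 13 lower (median 0.03, and from -0.01 to 0.06 over the alternatives). Car12, a carbonic anhydrase, stood at 197, 208 and 212 CPM in R219S and 30.5, 32.7 and 36.9 CPM in FE255del (2.62 ± 0.10), and the platelet phosphofructokinase Pfkp at 203 ± 17.6 against 348 ± 21 CPM (-0.78 ± 0.06).

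Of 23 chemokine genes tested, 3 were higher in R219S and 11 lower, with a median of -0.88 (-0.54 without FE255del replicate 1). Cxcl3, a neutrophil attractant, stood at 5.39, 5.92 and 5.95 CPM in R219S and 53.7, 49.5 and 47.9 CPM in FE255del (-3.13 ± 0.14), and Cxcl17, a chemokine of mucosal epithelium, at 0.594 ± 0.0143 against 13.3 ± 1.15 CPM (-4.48 ± 0.23). Each FE255del library was above each R219S library for Cxcl3. Ccl20 went the other way (26.7 ± 1.43 against 9.6 ± 0.721 CPM, 1.48 ± 0.13). The NF-kB list had 13 members higher and 14 lower of 33 (median 0.00, and from -0.04 to 0.02 over the alternatives), with Cebpd (2.70 ± 0.11) and Lcn2 (1.90 ± 0.16) higher and Tnfaip2 (-1.40 ± 0.07) lower. Of 43 interferon-stimulated genes, 11 were higher and 17 lower (median -0.28, and -0.17 without FE255del replicate 2 or 3), and 17 were higher when only the 6 compared libraries were fitted. Ifit2 (-1.10 ± 0.07), Gbp6 (-3.13 ± 0.21) and Oasl1 (-2.20 ± 0.19) were lower, and Ifitm3 (0.84 ± 0.07) and Ddx58, a sensor of viral RNA (0.65 ± 0.05), were higher.

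**Figure D3:**
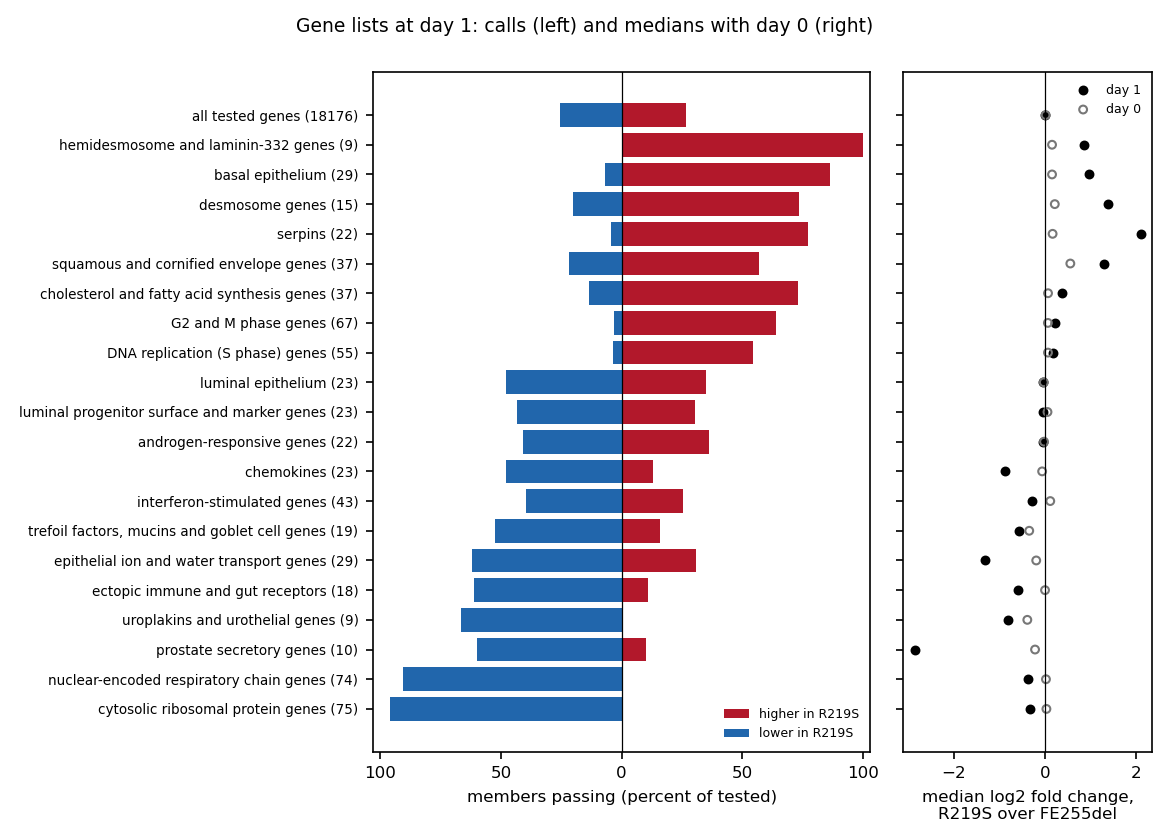
Left, percent of tested members of 20 gene lists and of all tested genes that passed higher (red) or lower (blue) in R219S at day 1, with the number tested in parentheses. Right, median log2 fold change of each list at day 1 (filled) and day 0 (open). All tested genes show 26.8% higher and 25.7% lower, against 9 of 9 hemidesmosome genes higher and 72 of 75 ribosomal protein genes lower.

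Epithelial markers of the labelled tissue were high in both variants. Epcam stood at 932 ± 11.4 CPM in R219S and 656 ± 11.6 CPM in FE255del (0.51 ± 0.06), and the cadherin Cdh1 at 965 ± 27.1 and 1019 ± 25.3 CPM. The Cdh1 difference of -0.08 ± 0.0414 did not pass (adjusted p = 0.11). It passed with total-count scaling (adjusted p = 0.0013) and with only the compared groups in the fit (adjusted p = 0.0077). Pbsn, the probasin of mature prostate secretion, and the neuroendocrine marker Chga were too low to be tested, and Syp stood at 0.251 ± 0.0565 and 0.423 ± 0.127 CPM. Vim, the mesenchymal filament gene, was higher in R219S at 34.4 ± 3.87 against 9.44 ± 1.32 CPM (1.86 ± 0.15), with EV at 1.89 ± 0.136 CPM. Of 20 fibroblast markers 12 were tested, 5 higher and 2 lower, with summed levels of 15.5 to 17.1 CPM in R219S and 9.38 to 10.2 CPM in FE255del. Dcn stood at 2.46 against 0.219 CPM and Pdgfra at 0.116 against 0.41 CPM. Of 13 smooth muscle markers 10 were tested, 3 higher and 5 lower (86.8 to 93.8 and 79.3 to 84.2 CPM). Of 14 endothelial markers 6 were tested, 1 higher and 4 lower (5.69 to 6.36 and 24.5 to 28.7 CPM), with Pecam1 at 0.372 against 6.48 CPM and Kdr at 0 against 0.193. Of 19 immune markers 9 were tested, 0 higher and 5 lower (191 to 207 and 303 to 318 CPM). Most of the immune sum was Cd14 (195 and 261 CPM) and Csf1r (0.0554 and 46.1 CPM), while Ptprc, Cd3e and Adgre1 were too low to be tested. Of 13 neuroendocrine markers 5 were tested, 1 higher and 1 lower, and of 10 markers of seminal vesicle 1 was tested and did not pass. The part of other cells in the receptor and matrix results above was not tested beyond these levels.

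The day 1 libraries of EV and WT show where each variant lay. They were not in the contrast of the variants, but the fit over all 12 groups used them for its filter, scaling and spread. Of the 1439 genes at least 2-fold higher in R219S, R219S was nearer to EV and FE255del nearer to WT for 718 (49.9%), beside 32.8% of all tested genes. Of the 1647 at least 2-fold lower, this was so for 1108 (67.3%). The opposite placing, R219S nearer to WT and FE255del nearer to EV, was found for 378 (26.3%) and 220 (13.4%), beside 14.8% of all tested genes. In 849 of the 1439 genes (59.0%), all 3 R219S libraries were above the other 9 libraries of day 1, as for Col14a1, Igf1, Cd24a and Fkbp5. In 345 (24%) all 3 FE255del libraries were below the other 9, as for Krt5. In 575 of the 1647 genes (34.9%) R219S was below the other 9 libraries, as for Krt7 and Tmprss2, and in 615 (37.3%) FE255del was above them, as for Clca1 and Foxj1. Over all tested genes the corresponding shares were 13.2%, 5.86%, 10.3% and 7.63%. The 1439 and 1647 genes were chosen for a gap between the variants. That choice in itself raises the shares where the variants are placed apart or lie beyond the other 9 libraries. The shares over all tested genes are therefore not what would be expected of these genes. These placings use means on the log2 scale with 0.05 CPM added and carry no test.

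The day 0 libraries give the same 2 constructs at the start. There 2219 genes passed (12.2%), 1326 higher in R219S (7.3%) and 893 lower (4.91%). The higher count was 753 without FE255del day 0 replicate 1, 852 without R219S day 0 replicate 2 and 845 without a filter on low counts, and with total-count scaling 1029 were higher and 1155 lower. The difference between the variants changed from day 0 to day 1 in 6834 genes (37.6%), 3394 upward in R219S relative to FE255del (18.7%) and 3440 downward (18.9%). Of the 9537 genes called at day 1, 1329 (13.9%) were called in the same direction at day 0, 380 in the opposite direction and 7828 not at all. In 6340 of them (66.5%) the change since day 0 itself passed in the direction of the day 1 difference.

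Trp63, Cd24a, Fkbp5 and Tmprss2 did not pass at day 0 (adjusted p = 0.67, 0.54, 0.26 and 0.86). Trp63 stood at 226 ± 12.5 CPM in R219S and 235 ± 6.84 CPM in FE255del at day 0, Cd24a at 738 ± 18.5 and 711 ± 28.9 CPM, and Fkbp5 at 150.3 ± 5.94 and 140.3 ± 3.39 CPM. The change in the difference since then was 1.44 ± 0.09 for Trp63, 1.69 ± 0.07 for Cd24a, 2.03 ± 0.08 for Fkbp5 and -1.96 ± 0.07 for Tmprss2 (adjusted p = 1.1e-14, 1.6e-20, 5.9e-21 and 1.7e-21). Krt5 and Krt14 were already higher in R219S at day 0 (0.37 ± 0.05 and 0.62 ± 0.07) and their differences grew by 1.53 ± 0.08 and 1.61 ± 0.10. Of the squamous genes, 18 of 37 were higher at day 0 and 1 lower (median 0.55). Desmosome genes had 8 of 15 higher and 0 lower at day 0, and basal genes 9 of 29 higher and 3 lower. Ion and water transport genes had 10 of 29 lower and 3 higher, and prostate secretory genes 4 of 10 lower and 0 higher. Over all tested genes 7.3% were higher at day 0 and 4.91% lower. Krt13 (1.77 ± 0.33), the protease gene Casp14 (1.58 ± 0.19), Dmkn (1.55 ± 0.18) and Dsg4 (1.53 ± 0.20) were among the genes highest in R219S at day 0, together with Rnf150 (1.82 ± 0.15) and Mgam (1.38 ± 0.17).

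Some differences were present before day 1 and remained in direction. Igfbp5 stood at 0.646 ± 0.131 CPM in R219S and 10.6 ± 2.21 CPM in FE255del at day 0 (-3.99 ± 0.41), beside 2.82 ± 1.21 and 179 ± 3.24 CPM at day 1. Wnt5a stood at 0.758 ± 0.218 and 11 ± 1.23 CPM at day 0 (-3.87 ± 0.19). B3gnt5, a glycosyltransferase of glycolipids, was lower in R219S at both days (-3.64 ± 0.22 and -1.33 ± 0.18), a change of 2.31 ± 0.29 (adjusted p = 3.1e-08). Fndc1 and Tcf7l1, a repressor in Wnt signalling, were lower at both days (-2.63 ± 0.19 and -1.69 ± 0.17, -2.12 ± 0.17 and -1.94 ± 0.17). Plcb4 was lower at day 0 (-2.0 ± 0.18) and did not pass at day 1 (-0.25, adjusted p = 0.18), though it did without R219S replicate 3 (-0.46, adjusted p = 0.02).

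**Figure D4:**
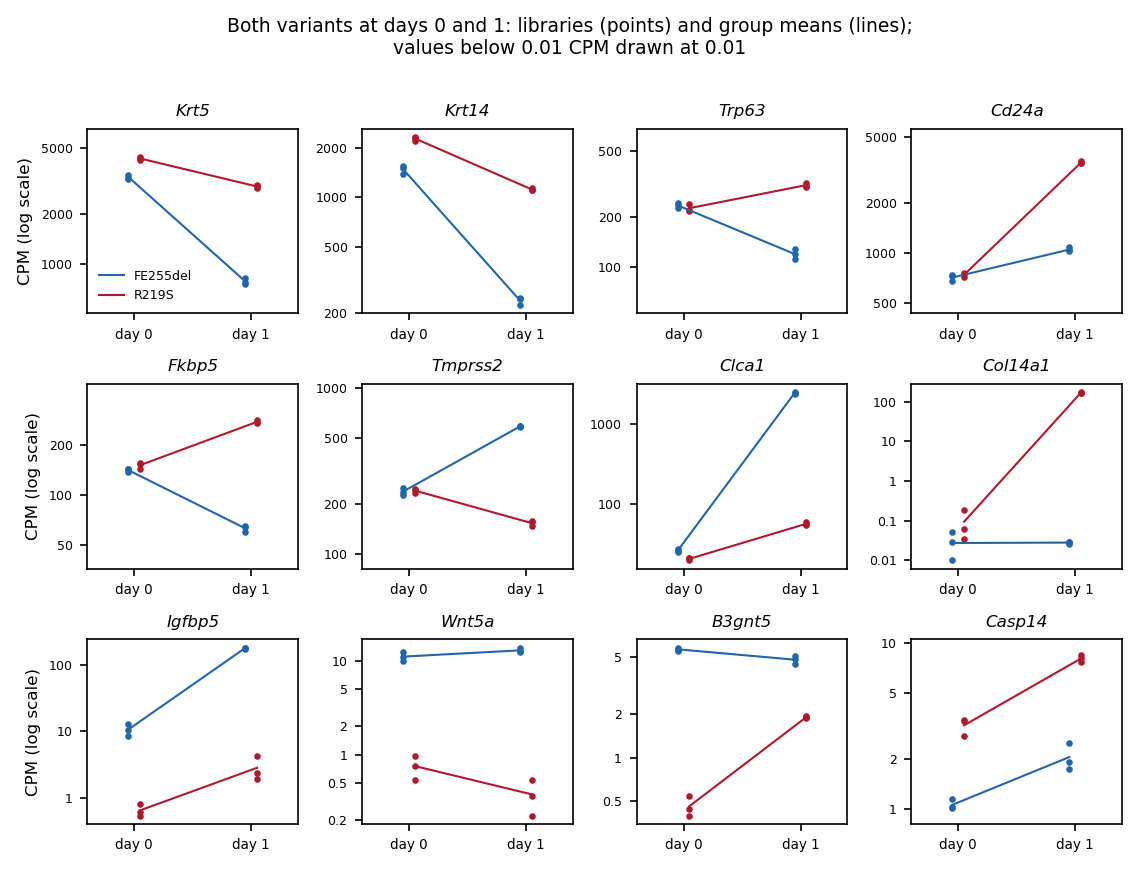
Level of 12 genes in each library of FE255del (blue) and R219S (red) at days 0 and 1, in CPM on log scales, with lines joining group means and values under 0.01 CPM drawn at 0.01. Trp63, Cd24a, Fkbp5 and Tmprss2 passed at day 1 and not at day 0, and Igfbp5, Wnt5a, B3gnt5 and Casp14 passed at day 0 too, Igfbp5 at 10.6 ± 2.21 CPM in FE255del and 0.646 ± 0.131 in R219S.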

How the data were processed

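Polyadenylated RNA was sequenced from 36 libraries in 12 groups of 3, prepared with a stranded TruSeq kit per the labels. The authors deposited 1 table per library of estimated counts per Ensembl gene. The submitters' processing notes name STAR 2.4.2a, featureCounts 1.4.3 and mm10. The annotation release and the strand setting are not given in the sources used here, so overlapping and antisense genes are uncertain. Decimals occurred in 298311 of the deposited values, by at most 3.0e-09, and were rounded off. About 70% of the low counts were even, from 69.7% to 70.5% over the 6 compared libraries.

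Genes kept by filterByExpr were scaled by TMM (factors 0.938 to 1.08) and fitted with the quasi-likelihood test of edgeR 4.0.16 (limma 3.58.1, R 4.3.3) over all 12 groups, which gave 24 residual degrees of freedom and a common biological coefficient of variation of 0.0695. Contrasts were R219S minus FE255del at day 1, at day 0, and the difference between these, with p-values adjusted by Benjamini-Hochberg over 18176 genes. CPM values are TMM-scaled counts. Replicate numbers did not pair the samples (correlations of same-numbered deviations -0.012, -0.017 and 0.038). No 2 libraries of the same variant agreed within counting noise. Their mean squared differences were 4.455 to 11.38 times that noise, which is set too low if both reads of a pair were counted. The alternatives were RLE and total-count scaling, no filter and a stricter filter, the compared groups alone, DESeq2 1.42.0, a replicate block, each library left out and a 2-fold minimum. On simulated counts with known changes, 70.0% of 50 genes changed 2-fold at day 1 were recovered. In that simulation 17751 of 17947 tested genes were unchanged, while 9537 of 18176 passed in the data. The adjustment therefore worked in another setting, and the share need not hold for the real comparison.

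Named genes were FOXA1, lineage and proliferation genes set by name, the 15 largest differences per direction at a mean of at least 2 CPM without overlap, the 8 most abundant genes per direction at least 2-fold apart, the 6 largest per direction at day 0 and in the change, and up to 6 members per direction of each list by smallest p. Predicted genes were left out of the ranked choices, and some named genes are not reported here. The members and lists were chosen with earlier results of these data known.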

Additional observations from a re-analysis of the deposited data

Results flagged for a closer look

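The difference between the variants moved from day 0 to day 1, by the test of the difference itself (edgeR's quasi-likelihood interaction contrast, Benjamini-Hochberg adjusted), in 12 of the genes with the widest changes. Among genes that came up in R219S, the log2 difference moved by 10.56 for Col14a1, by 8.64 for Slc13a1, by 8.35 for the transmembrane gene Tmem45a2 and by 8.24 for Atp13a5. At day 0 Col14a1 stood at 0.0939 ± 0.0822 CPM in R219S and 0.0272 ± 0.0263 CPM in FE255del, Slc13a1 at 0.24 ± 0.0839 and 0.16 ± 0.0388, Tmem45a2 at 0.0213 ± 0.0186 and 0.0364 ± 0.0318 and Atp13a5 at 0.0949 ± 0.0297 and 0.0816 ± 0.0789. The day 0 levels of these genes rest on few counts. Olfm1 came up in FE255del, from 0.0194 ± 0.0337 CPM at day 0, with counts in 1 of 3 libraries, to 88.1 ± 6.8 CPM at day 1. It stood at 0.102 ± 0.148 CPM in R219S at day 0, most of it in 1 library. The fitted move of -13.39 for Olfm1 is larger than the day 1 difference itself (-11.15) and rests on those few day 0 counts, so its size cannot be read.

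For genes with at most 3 counts in a group the size of the change cannot be read, and its adjusted p is given. It was 1.8e-05 for Adcyap1r1, 0.0038 for Sctr, 2.8e-05 for Actl6b, 0.00015 for Cd22 and 6.3e-06 for the sialyltransferase St8sia1, at 8.91 ± 1.28 CPM in FE255del and 0.0188 ± 0.0326 in R219S at day 1. The adjusted p was 0.0065 for Cps1 and 0.0051 for Astn1, which were higher in R219S at day 1. At day 0 Adcyap1r1 stood at 0.0185 ± 0.0161 CPM and Sctr at 0.00874 ± 0.0151 CPM in FE255del, where Actl6b, Cd22 and St8sia1 had no count. In R219S at day 0, Cps1 stood at 0.00695 ± 0.012 CPM and Astn1 had no count.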

How the results depend on the processing

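Under 13 alternatives to the fit, no called gene among those named turned its direction, but the medians of 7 lists given in the text changed sign (luminal, androgen-responsive, cytochrome P450, mesenchymal transition, glycolysis and hypoxia, immediate early and NF-kB). The brush border median became 0.00 and that of the insulin-like growth factor axis -0.00 without a filter on low counts. Of the results for named genes 50 lost and 7 gained their call in some setting, among them Cyp2c29 and Serpind1 with DESeq2. The counts of genes at least 2-fold apart at day 1 fell to 669 higher and 658 lower under the stricter filter, by which fewer genes were tested. A 2-fold minimum turned the 4867 and 4670 calls into 1439 and 1647. At day 0 the counts were 845 higher and 837 lower without a filter on low counts, and the reason for the change was not tested. Leaving out 1 library at a time gave 4469 to 4600 higher and 4274 to 4411 lower at day 1, 1379 to 1417 and 1584 to 1619 with at least 2-fold, 753 to 1064 and 674 to 780 at day 0, and 3149 to 3354 and 3172 to 3325 for the change. Only without FE255del replicate 1 (753) or R219S replicate 2 (852) of day 0 did such a count move by over 1.5 times. With the replicate number as a block, 4881 genes were higher and 4709 lower at day 1, 1398 and 945 at day 0, and 3442 and 3505 in the change, and no such count moved by over 1.5 times. DESeq2 called 4836 and 4681 at day 1. Depth limits the genes at 0 or near it, whose folds are given as bounds or ratios.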
